A study of Mus musculus with 6 samples.

Results

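The glycolytic enzyme genes described here are 10 genes chosen by symbol, namely Gpi1, Pfkl, Aldoa, Tpi1, Gapdh, Pgk1, Pgam1, Eno1, Pkm and Ldha. All 10 were among the 55367 gene symbols of the deposited count files. Expression was measured by RNA-seq in acinar cells of the mouse pancreas, which secrete its digestive enzymes, and describing expression in these cells is the stated aim of the series. All 6 libraries form 1 untreated group of mice whose genotype reads Pdx1-Cre; Klf5-mCherry-CreERT2. Both recombinases are thus carried by every library, Pdx1-Cre being driven by a promoter active in the pancreatic lineage. Age, sex and animal are not given in the sources used here, and no library comes from mice without these alleles. Each library was made from 300 sorted GFP-positive cells by a modified Smart-seq2 protocol with 12 preamplification cycles. The genotype names no GFP reporter, and genomic DNA is entered as the molecule, whereas the protocol purifies RNA. The library names carry a number of unstated meaning, by which replicates 4 to 6 (set B here) are separated from replicates 1 to 3 (set A). The labels do not say that the libraries are from different animals, and p-values therefore measure only the spread between these samples, which may be technical.

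Glycolysis splits glucose into pyruvate in the cytosol and yields ATP and NADH, and lactate dehydrogenase turns pyruvate into lactate while recovering NAD+. The early steps, which include the isomerase Gpi1, phosphofructokinase, aldolase and the triose isomerase Tpi1, spend ATP and yield triose phosphates. The later steps, from the dehydrogenase Gapdh to pyruvate kinase, return ATP. Most steps are served by several genes whose products differ in regulation and tissue. In many tissues the genes of this pathway are targets of the hypoxia-inducible factor HIF-1, which binds DNA at short core motifs. Acinar cells hold many mitochondria and make large amounts of secreted protein.

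Total counts were 4670819 to 7072270 per library, of which genes of ribosomal RNA took 38.1% to 60.9%. Background, taken from 1489 receptor genes of smell and pheromone sensing in counts per Mb of their span, was 26.4 to 109 in 5 libraries and 326 in replicate 5, which stands apart. All 10 listed acinar markers were over 3 times their expected background in all 6 libraries. Their summed level in CPM, the count relative to the library's sum, was 65660 to 109102 CPM in set B and 207859 to 259538 CPM in set A. Summed beta cell markers were 19.9 to 1216 CPM in set B and 6.60 to 24.7 CPM in set A. Listed proliferation genes summed to 22.1 to 27.9 CPM in set B and 5.40 to 7.66 CPM in set A. Only 1 of the 8 proliferation genes and 1 of the 8 beta cell markers were over 3 times their expected background in all 6 libraries.

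The upstream sequences of 4 of the genes are shown because they include the pair at the top of the level order, Aldoa and Gapdh, and a pair of well-known HIF-1 targets, Pgk1 and Ldha. Each run is the 250 bases before a RefSeq transcription start in build GRCm38.p6, printed 5′ to 3′ on the gene's strand, and none of the 4 windows overlaps an annotated exon. Capitals mark the HIF core motif, ACGTG or GCGTG on either strand.

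Aldoa (chr7:126799255-126799504, - strand): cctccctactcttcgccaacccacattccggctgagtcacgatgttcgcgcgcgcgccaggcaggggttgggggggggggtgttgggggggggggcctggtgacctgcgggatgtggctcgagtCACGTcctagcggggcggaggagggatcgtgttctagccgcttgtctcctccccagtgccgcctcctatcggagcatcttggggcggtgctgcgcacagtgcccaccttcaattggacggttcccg

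Gapdh (chr6:125165774-125166023, - strand): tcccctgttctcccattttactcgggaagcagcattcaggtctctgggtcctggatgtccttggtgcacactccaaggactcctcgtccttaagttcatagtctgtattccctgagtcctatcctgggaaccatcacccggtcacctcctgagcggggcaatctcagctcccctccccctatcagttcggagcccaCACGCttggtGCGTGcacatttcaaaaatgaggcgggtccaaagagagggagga

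Pgk1 (chrX:106186850-106187099, + strand): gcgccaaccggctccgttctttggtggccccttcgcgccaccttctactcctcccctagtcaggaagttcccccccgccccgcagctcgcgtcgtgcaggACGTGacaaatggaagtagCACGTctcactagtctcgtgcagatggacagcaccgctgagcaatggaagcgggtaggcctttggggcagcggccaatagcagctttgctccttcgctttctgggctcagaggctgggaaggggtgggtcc

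Ldha (chr7:46845554-46845803, + strand): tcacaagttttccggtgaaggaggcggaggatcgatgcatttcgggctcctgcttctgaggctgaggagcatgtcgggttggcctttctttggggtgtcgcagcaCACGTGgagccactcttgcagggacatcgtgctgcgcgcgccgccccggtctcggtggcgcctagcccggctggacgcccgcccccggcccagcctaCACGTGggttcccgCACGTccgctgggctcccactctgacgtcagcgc

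The window shown for Ldha held 5 matches to the HIF core. Of these 4 lie in 2 copies of CACGTG, which contains the core on both strands. Ldha has another window, from 46846832 to 46847081, which held 1 match. The windows of Pgk1 and Gapdh held 2 matches each and that shown for Aldoa 1. Aldoa has other windows, from 126799179 with 1 match and from 126800448 with 0. Starts for all 10 genes were in the RefSeq table, 16 windows in all, and 12 of the windows, from 8 genes, held the core. Windows of neighbouring starts overlap for Aldoa and for Eno1, so some matches are counted more than once. Of all 32851 windows of the same length 38.6% held it. The GC box GGGCGG was found in 9 of the 16 windows, against 32.7% of all windows, and the TATA box TATAAA in 0 of 16, against 12.4%. The median GC content was 62.2% in the 16 windows and 52.4% in all windows, so short motifs rich in G and C are compared between windows of unlike composition. A match describes letters in a window and is not a measured binding site.

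The early steps were led by aldolase. Levels are given as TPM, in which counts are divided by exon length and scaled to a total over all genes, ribosomal RNA included. Gpi1 (chromosome 7, 34201330 to 34230336, build mm10), which interconverts glucose and fructose 6-phosphate, had 2.79, 2.38 and 2.91 TPM in replicates 4, 5 and 6 of set B, and 3.49, 2.53 and 3.72 TPM in replicates 1, 2 and 3 of set A. The sets overlapped, and its mean was 2.97 ± 0.532 TPM (SD, n = 6).

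Pfkl (chromosome 10, 77986947 to 78010083), the liver-type phosphofructokinase of the committed step, was lowest of the 10 by its mean. It had 0.575, 0.628 and 0.967 TPM in set B and 0.811, 0.498 and 0.719 TPM in set A. Its counts were only 9 to 24 per library, and the 9 counts of replicate 5 have an exact Poisson 95% interval of 4.12 to 17.1, which covers counting error only. Expected background in replicate 5 was 7.55 counts, inside that interval, so no level of Pfkl above background is read from that library.

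Aldoa (chromosome 7, 2 counted intervals, 126795234 to 126800751 and 126800790 to 126809108), the aldolase widely expressed outside the liver, had the highest mean, 11.7 ± 2.81 TPM (SD, n = 6). It had 13.8, 6.91 and 9.89 TPM in set B and 12.2, 14.3 and 12.9 TPM in set A, replicate 5 being lowest. Of its exon bases 61.2% lie inside the spans of Fam57b and Gm44856 on the other strand, and how reads there were assigned is not stated by the submitters. Genes with all exon bases inside other spans, such as Hif1a and G6pdx, had 0 counts, so this level of Aldoa may be too low. With only exon bases outside other genes as the length, an option added after seeing the data, its mean was 30.2 TPM.

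Tpi1 (chromosome 6, 124810586 to 124814296) interconverts the triose phosphates made by aldolase. It had 8.90, 8.63 and 6.72 TPM in set B and 8.44, 7.02 and 6.88 TPM in set A, a mean of 7.76 ± 0.992 (SD, n = 6).

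Of the later steps, Gapdh was highest by its mean. Gapdh (chromosome 6, 125161715 to 125166467), which makes NADH from glyceraldehyde 3-phosphate, had 15.6, 8.12 and 8.17 TPM in set B and 9.17, 9.87 and 6.20 TPM in set A. Replicate 4 was the highest, and the mean was 9.51 ± 3.22 TPM (SD, n = 6). Pgk1 (chromosome X, 106187100 to 106203699), the kinase of the first ATP-yielding step, had 4.74, 6.64 and 5.89 TPM in set B and 4.32, 4.85 and 5.35 TPM in set A.

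Pgam1 (chromosome 19, 41911923 to 41918660), a phosphoglycerate mutase, was the second lowest. It had 1.64, 2.35 and 0.740 TPM in set B and 2.39, 1.98 and 1.21 TPM in set A, from 5 to 21 counts per library. Eno1 (chromosome 4, 150236721 to 150248879), the widely expressed enolase, had 4.34, 2.34 and 2.24 TPM in set B and 2.85, 2.02 and 2.58 TPM in set A. The highest library of Eno1, replicate 4, again lay apart from the other 5.

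Pkm (chromosome 9, 59656368 to 59679375) encodes the muscle-type pyruvate kinases, whose M1 and M2 forms arise by splicing and are not separated by counts per gene. It had 6.37, 2.24 and 3.58 TPM in set B and 4.19, 4.41 and 3.84 TPM in set A. Both extremes were thus in set B, with replicate 4 highest and replicate 5 lowest. Of its exon bases 15.3% lie inside the span of Gm49759, a gene on the same strand.

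Ldha (chromosome 7, 46841475 to 46855627), the lactate dehydrogenase subunit that favours making lactate, had 10.1, 5.91 and 7.18 TPM in set B and 6.68, 5.57 and 5.80 TPM in set A. The sets overlapped on this scale, with a mean of 6.87 ± 1.68 TPM (SD, n = 6). With counts outside ribosomal RNA as the total they did not, at 12.9 to 19.9 TPM in set B and 7.83 to 8.90 TPM in set A. The sets were likewise apart, with set B higher, for Pfkl, Tpi1, Gapdh, Pgk1 and Eno1, so this is not particular to Ldha. The share of all genes without overlap is not given. By edgeR the median of all genes tested was also higher in set B, by 0.77, with that total. Across the 10 genes, replicate 4 was the highest library for 5 and the lowest for 0, while replicates 2 and 5 were the lowest for 3 each.

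**Figure D1:**
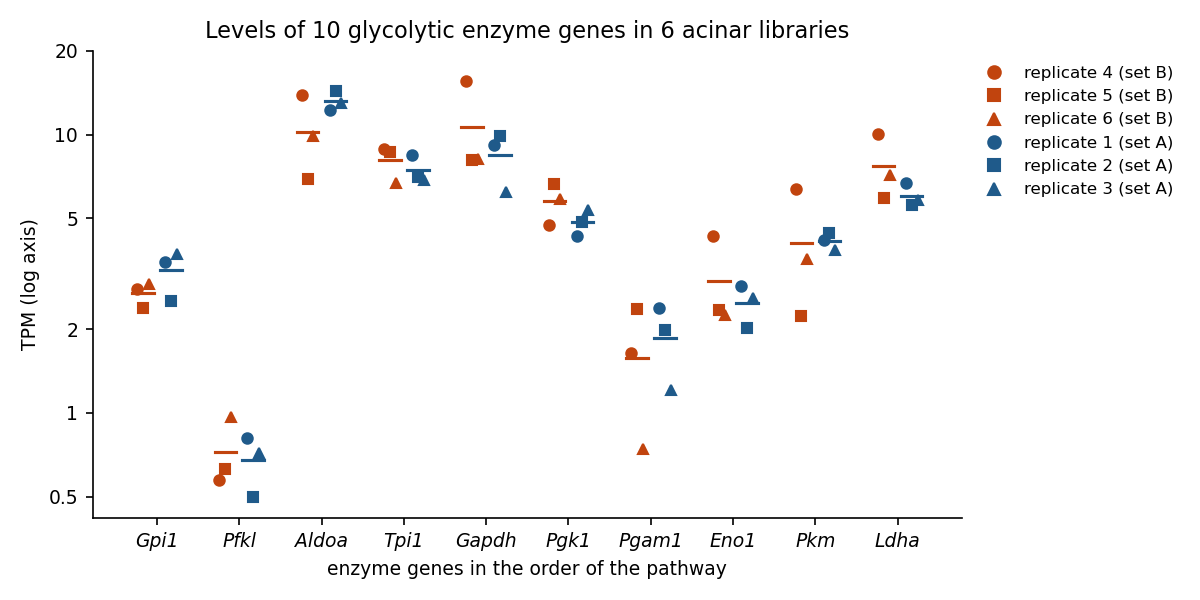
TPM on a log axis of the 10 genes in pathway order; points are single libraries, with set B left of set A, and bars are the mean of each set of 3. Replicate 4 is the highest library for Tpi1, Gapdh, Eno1, Pkm and Ldha, and Pfkl and Pgam1 lie under the other genes by their means.

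The order of the mean levels ran Aldoa, Gapdh, Tpi1, Ldha, Pgk1, Pkm, Gpi1, Eno1, Pgam1 and Pfkl. None of the 9 neighbouring pairs in that order differed beyond its spread by an exact sign-flip test (two-sided) of within-library differences in log2(TPM + 1), with adjusted exact p-values of 0.20 to 0.41 (Benjamini-Hochberg over 9 pairs, n = 6). The difference of Pgam1 over Pfkl, for example, was 0.64 ± 0.47 (SD, n = 6), with Pgam1 higher in 5 of 6 libraries, at 0.54 ± 0.64 within set B and 0.75 ± 0.34 within set A (n = 3 each). That of Aldoa over Gapdh was 0.29 ± 0.43, at -0.04 ± 0.25 within set B and 0.61 ± 0.30 within set A. The order was taken from the same values, so these tests only describe it. With 6 libraries the smallest exact p is 0.031, so a single pair could not pass after adjustment over 9 pairs. Of all 45 pairs of the 10 genes, 33 had the same direction in every library. Aldoa exceeded 7 of the other 9 genes in all 6 libraries, the exceptions being Gapdh and Tpi1.

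The order depends on the length used. By whole gene span, which the counts cover introns included, 6 of the 9 pairs passed the same test, and Aldoa lay under Gapdh by 1.20 (adjusted exact p = 0.047), Pgk1 under Pkm by 0.17 and Gpi1 under Eno1 by 0.47. Short genes such as Tpi1, with a span of 3711 bp, gain on that scale over long ones such as Gpi1, with 29007 bp.

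Reads from near-identical copies limit the levels of some members. Of the distinct 50-base words in the GENCODE transcripts of each gene, the share also present in transcripts of another gene was 53.9% for Pgk1, 36.2% for Pgam1, 26.0% for Eno1, 25.8% for Pkm and 25.1% for Gapdh. It was 15.8% for Gpi1, 9.26% for Ldha, 5.13% for Aldoa, 4.18% for Tpi1 and 0.0298% for Pfkl. For Gapdh these words recurred in 213 annotated pseudogenes, and for Pgk1 in 5. How reads with several alignments were counted is not stated, so the levels of Pgk1, Pgam1, Eno1, Pkm and Gapdh are uncertain by an unmeasured amount.

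Where a step has several genes, the member was mostly the higher of them. Of 12 pairs of a member with another gene of its step, 10 were past the threshold of the same exact test, two-sided, the member being higher in 6 of 6 libraries in each and so in both sets (exact p = 0.031, the smallest that 6 libraries allow; adjusted exact p = 0.038 over 12 pairs). The exceptions were both of phosphofructokinase. One of the 10, Gapdh over Gapdhs, the sperm form of Gapdh, could have no other outcome, because the exons of Gapdhs lie wholly inside the spans of other genes and it had 0 counts. Without it 9 of 11 pairs were past the threshold. Leaving out any 1 library ends all 10 calls, because 5 libraries allow no exact p under 0.063, while the direction of these differences stayed the same.

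Phosphofructokinase was the step with no leading gene by this test. The muscle-type gene Pfkm had 0.619, 1.95 and 1.32 TPM in set B and 0.540, 1.63 and 1.12 TPM in set A, a mean of 1.20 ± 0.556 (SD, n = 6). Pfkl minus Pfkm was -0.34 ± 0.43 (SD, n = 6; adjusted exact p = 0.094), with Pfkm higher in 5 of 6 libraries, at -0.38 within set B and -0.29 within set A. By gene span length the difference was 0.18 in the other direction (adjusted exact p = 0.034), and without length scaling 0.21. With expected background subtracted it was -0.13 (adjusted exact p = 0.53). In replicate 5, where Pfkm was highest, its 14 counts stood beside 13.01 expected from background. The platelet-type gene Pfkp had 0.348 ± 0.343 TPM (SD, n = 6), and Pfkl minus Pfkp was 0.36 ± 0.36 (adjusted exact p = 0.094). Expected background made up 50.1% of the counts of Pfkp and 30.4% of those of Pfkm, against 13.8% of those of Pfkl. Pfkl held 34.9% ± 14.5 of the summed TPM of the 3 genes (SD, n = 6), from 17.5% in replicate 5 to 57.2% in replicate 1.

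In the other steps the member was the higher gene of each pair. Aldoa exceeded the brain-type aldolase gene Aldoc, with 0 to 10 counts per library, by 3.12 ± 0.75 log2 units (SD, n = 6). Pgk1 exceeded the testis gene Pgk2, which had 0 counts in every library. Against a floor of 3 counts per library, and by exon length, Pgk1 was 7.73-fold higher in the library where this ratio is lowest. Counts include introns, and Pgk1 spans 16600 bp against 1626 bp for Pgk2, so the ratio is smaller by span. By gene span length the difference in log2(TPM + 1) was 1.03, against 2.64 by exon length.

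Eno1 exceeded the neuronal enolase gene Eno2 by 1.71 ± 0.39 and the muscle enolase gene Eno3 by 1.24 ± 0.41 log2 units (SD, n = 6). Pgam1 exceeded the muscle mutase gene Pgam2, with 0 to 2 counts per library, by 0.98 ± 0.17. These sizes are compressed by the pseudocount of 1, since the other genes lie under 1 TPM.

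At the pyruvate end, Pkm exceeded Pklr, the liver and red cell pyruvate kinase gene, by 1.80 ± 0.57 (SD, n = 6) and held 89.0% ± 7.64 of the step's TPM. Ldha exceeded Ldhb, the subunit that favours making pyruvate, by 1.96 ± 0.53. Ldhb had 1.07 ± 0.666 TPM, with 0.752, 2.37 and 1.12 TPM in set B and 0.718, 0.577 and 0.850 TPM in set A. Ldha also exceeded the testis gene Ldhc by 2.58 ± 0.91. Ldhc had 10 counts in replicate 5, 1 in replicate 6 and 0 in the other 4 libraries, and expected background equalled 89.4% of these counts. The share of Ldha in the step's TPM was 52.6% in replicate 5 and 84.6% to 93.1% in the other 5 libraries.

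**Figure D2:**
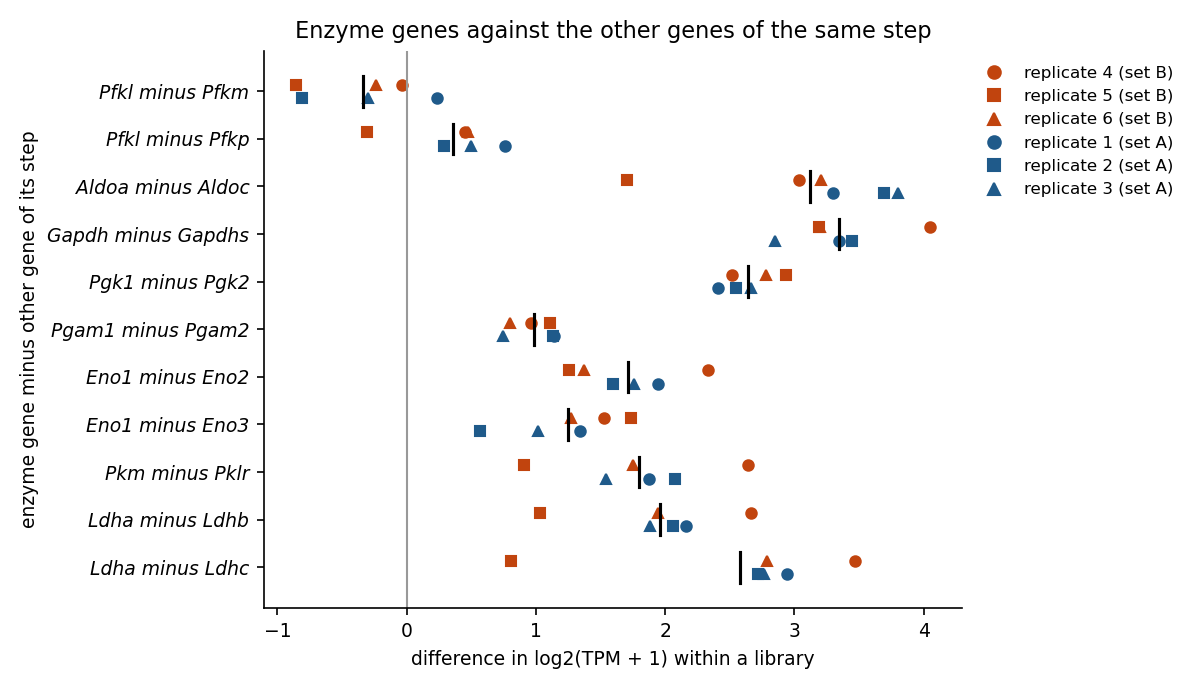
Within-library differences in log2(TPM + 1) between each enzyme gene and another gene of its step; points are single libraries, set B above set A, and black bars are means of 6. Points of all pairs shown other than those of Pfkl lie right of 0, Gapdhs having no counts by its position inside other genes. Replicate 5 is leftmost for Pfkm, Pfkp, Aldoc, Eno2, Pklr, Ldhb and Ldhc.

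Members differed in how far they varied. The coefficient of variation of TPM over 6 libraries was 0.128 for Tpi1, 0.161 for Pgk1 and 0.179 for Gpi1, and 0.338 for Gapdh, 0.328 for Pkm and 0.381 for Pgam1. Divided by the variation that counting alone gives at the mean count, it was 0.981 for Pfkl, 1.01 for Pgk1, 1.09 for Tpi1 and 1.29 for Pgam1. For these 4 genes the spread was thus at most 1.29 times that of counting. The same ratio was 3.91 for Gapdh, 2.97 for Aldoa, 2.78 for Pkm, 2.18 for Eno1 and 2.16 for Ldha. The median coefficient was 0.245 over the members and 0.401 over 7648 protein-coding genes with total counts in the members' range of 69 to 911. These 2 medians are not matched for depth, since median total counts were 416.5 for the members and 167 for the 7648 genes. Counting variation is larger at fewer counts.

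Gapdh is often used as a reference gene. Its coefficient of 0.338 lay above those of Actb, Hprt, Ywhaz, Ppia and Eef1a1, and under those of Gusb and Tbp. The median coefficient of the listed common reference genes was 0.249. The coefficients were 0.211 for the actin gene Actb, 0.161 for the purine salvage gene Hprt, 0.187 for Ywhaz and 0.296 for the cyclophilin gene Ppia, and 0.315 for the elongation factor gene Eef1a1, 0.391 for Gusb and 0.578 for Tbp, which has 59.6% of its exon bases inside other genes, with no test of the differences. Relative to counting variation the ratio was 5.94 for Actb and 5.43 for Ppia, above the 3.91 of Gapdh. At a given coefficient this ratio rises with the mean count, so it does not rank the genes by steadiness. The coefficients of Actb and Ppia were under that of Gapdh. Gusb and Tbp were named after their values were seen. Actb had 87.3 ± 18.4 TPM (SD, n = 6).

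None of the 10 genes differed between the sets by edgeR's quasi-likelihood test over 8723 genes. The log2 differences, set B over set A, were negative for all 10, from -0.83 ± 0.49 (SE) for Pgam1 and -0.80 ± 0.36 for Aldoa to -0.10 ± 0.35 for Ldha, and the smallest adjusted p was 0.17, for Gpi1 at -0.75 ± 0.32. Their median was -0.39, against 0.00 over all genes tested, of which 4385 of 8723 were negative. The negative sign was not particular to the members. Of tested genes, 14 of 16 of the TCA cycle list and 9 of 10 common reference genes were negative, with medians of -0.68 and -0.30. Other lists were mixed, with 5 of 8 NADH shuttle genes and 4 of 8 glycogen genes negative, and 3 of 4 glucose phosphorylation genes positive. Of all genes 0.0115% were called higher in set B and 0% lower. At an unadjusted p under 0.05, 1 member was lower and 0 were higher, where 9.76% of all genes were lower and 16.1% higher. DESeq2 also called 0 members, where 1.74% of all genes were called higher and 0.692% lower. At an unadjusted p under 0.05 DESeq2 gave 2 members lower in set B, Gpi1 at -0.89 and Aldoa at -0.92, and 0 higher, where 2.84% of all genes were lower and 7.63% higher.

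The direction rests on the scaling. With counts outside ribosomal RNA as the total and no other scaling, an option added after seeing the data, 7 members were positive, led by Ldha at 0.61 ± 0.27 and Gapdh at 0.59 ± 0.32, and Gpi1, Aldoa and Pgam1 stayed negative. On that scale the median of all genes moved to 0.77, so the members' median of 0.35 again lay under it. Single libraries mattered as well. Without replicate 5, Gapdh, Eno1 and Ldha were at 0.14, 0.03 and 0.15, and Aldoa at -0.51. Without replicate 4, Aldoa was lower in set B by edgeR with an adjusted p of 0.031 (-1.30 ± 0.39), where 5.72% of all genes were called lower and 16.9% higher. Summed acinar markers and summed proliferation genes differ between the sets by the ranges given above. Of the 5 proliferation genes tested by edgeR 4 were positive and 1 negative. Beta cell marker ranges overlap, replicate 5 of set B being at 19.9 CPM. Ribosomal RNA took 59.9% to 60.9% of counts in set B and 38.1% to 46.8% in set A. Receptor background was 52.3 to 326 counts per Mb in set B and 26.4 to 39.2 in set A. The part of all these in the members' values was not tested. In bulk libraries fewer cells of a type and less RNA per cell cannot be told apart.

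**Figure D3:**
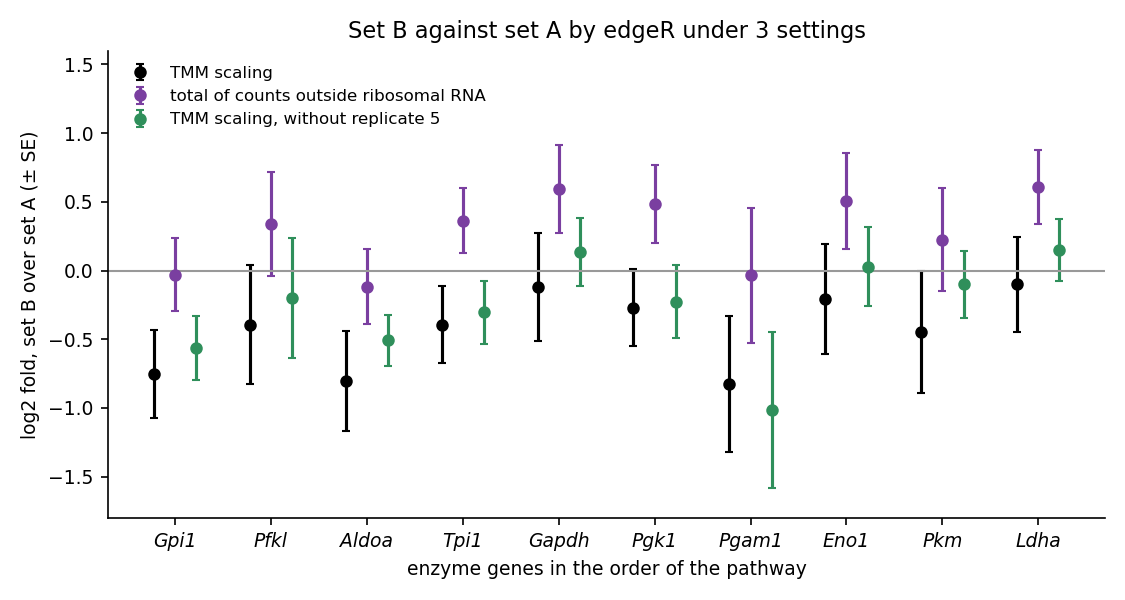
Log2 fold of set B over set A with its SE for the 10 genes by edgeR under 3 settings. All 10 points lie under 0 with TMM scaling, 7 of 10 lie over 0 with counts outside ribosomal RNA as the total, and Gapdh, Eno1 and Ldha lie over 0 with TMM scaling without replicate 5.

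The genes around glycolysis were uneven. The 10 members had a median of the mean levels of 4.70 TPM, against 0.491 TPM over all 21965 protein-coding genes, and 9 of 10 averaged at least 1 TPM. Among the protein-coding genes Aldoa ranked 565, Gapdh 691, Tpi1 830 and Ldha 946, while Pfkl ranked 9082. At glucose phosphorylation, the entry to the pathway, the hexokinase gene Hk2 had 1.37 ± 0.684 TPM (SD, n = 6) and the ADP-dependent kinase gene Adpgk 0.747 ± 0.229 TPM.

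Glucose transporter genes were low. Slc2a8 had 1.06 ± 0.635 TPM (SD, n = 6) and was the only 1 of 12 that averaged at least 1 TPM. Slc2a9 had 0.977 ± 1.45 and Slc5a1 0.780 ± 0.994 TPM, and expected background equalled 113% of the counts of Slc2a9. Slc2a1 and Slc2a2 lie mostly inside the spans of other genes, with 61.3% and 97.8% of their exon bases there, so no low level is read from them.

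Lactate and pyruvate transport was led by Bsg (basigin), the chaperone of monocarboxylate transporters, at 55.1 ± 8.28 TPM (SD, n = 6). The mitochondrial pyruvate carrier gene Mpc2 had 2.14 ± 0.571 and the monocarboxylate transporter gene Slc16a7 1.80 ± 0.395 TPM. The monocarboxylate transporter genes Slc16a1 and Slc16a3, named after their values were seen, had 0.307 ± 0.256 and 0.117 ± 0.164 TPM. Of the pyruvate dehydrogenase list 9 of 13 genes averaged at least 1 TPM, led by Pdhb at 4.40 ± 0.598, its inhibitory kinase gene Pdk2 at 3.76 ± 1.97 and Dld at 3.40 ± 1.08 TPM.

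The TCA cycle list, which oxidizes the acetyl groups made from pyruvate, had a median of 6.30 TPM over 17 genes, and 16 of them averaged at least 1 TPM. It was led by the succinate dehydrogenase gene Sdhb at 22.7 ± 4.97, the isocitrate dehydrogenase gene Idh2 at 12.7 ± 5.61 and Sdhd at 12.0 ± 1.20 TPM (SD, n = 6). Between the sets, 16 of its genes were tested and 0 called, and their median log2 difference was -0.68. The shuttle enzyme gene Mdh1, which passes NADH made in glycolysis to mitochondria as malate, had 16.5 ± 3.84 TPM, above every glycolytic member by its mean, although Aldoa exceeds it on the scale of exon length outside other genes.

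Among branches from glycolysis, the pentose phosphate genes Taldo1 (transaldolase) and Pgls had 13.6 ± 2.82 and 6.20 ± 1.46 TPM and Tkt (transketolase) 2.06 ± 0.792 (SD, n = 6). G6pdx had 0 counts with all exon bases inside another gene's span. For gluconeogenesis, Pck2, the mitochondrial phosphoenolpyruvate carboxykinase, had 4.11 ± 1.23, Pcx (pyruvate carboxylase) 2.91 ± 1.31 and G6pc3 1.54 ± 0.862 TPM. The glycogen list was led by glycogenin (Gyg) at 4.21 ± 0.740, Ugp2 at 2.86 ± 1.25 and Gbe1 at 2.81 ± 1.99 TPM, with 54.4% of the counts of Gbe1 expected as background.

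Of the regulators, the transcription factor gene Myc had 7.16 ± 2.18, the glucose-sensing partner gene Mlx 4.10 ± 0.529 and the HIF prolyl hydroxylase gene Egln1 2.51 ± 1.32 TPM (SD, n = 6). Hif1a lies wholly inside other genes' spans and had 0 counts. HIF target genes outside glycolysis had a median of 1.09 TPM, led by Ddit4 at 6.98 ± 1.52, Bnip3l at 3.01 ± 0.646 and Ndrg1 at 2.91 ± 1.05. In none of the lists from glucose phosphorylation to reference genes did edgeR call a gene between the sets, and the 1 gene called among all 8723 was Top2a of the proliferation list, higher in set B by 4.71.

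**Figure D4:**
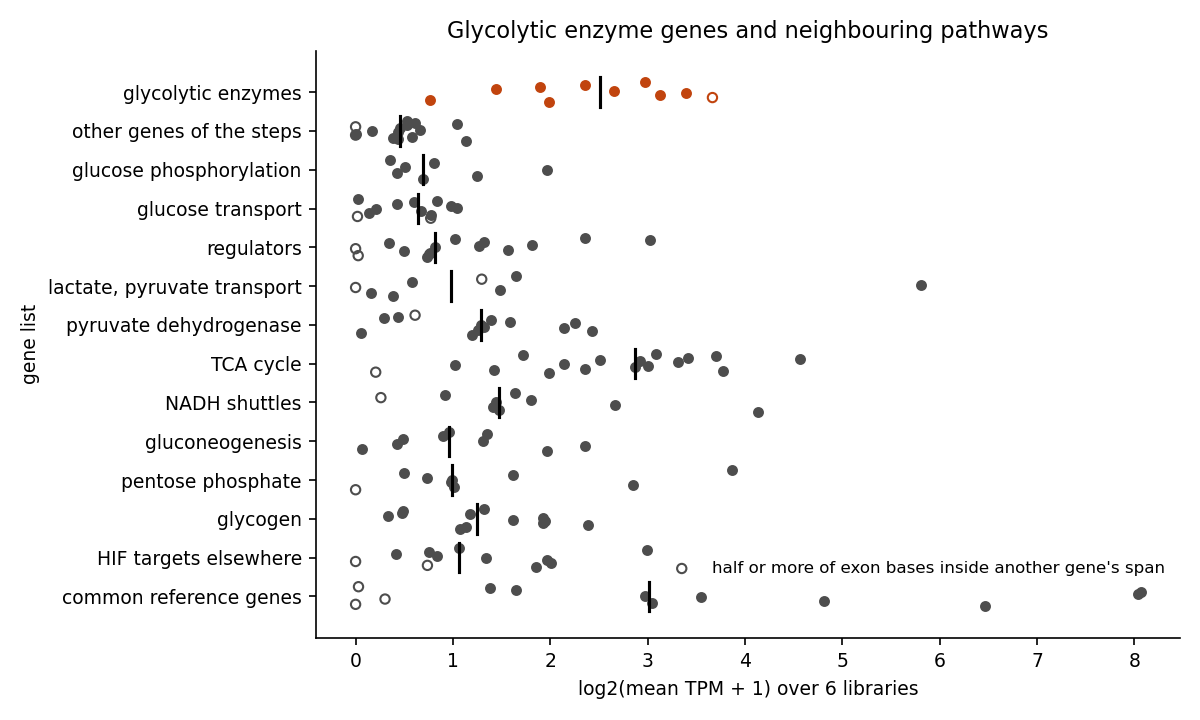
Mean TPM over 6 libraries on a log2(mean TPM + 1) axis for the 10 enzyme genes and the lists around them; each point is a gene, bars are list medians, and open points are genes with at least 50% of their exon bases inside another gene's span. The enzyme genes, with a median of 4.70 TPM, and the TCA cycle list, with 6.30 TPM, lie right of the transport and phosphorylation lists.

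By Pearson correlation of log2(TPM + 1) with the members' mean profile, the nearest of 346 protein-coding genes with a mean of at least 20 TPM and at least 10 counts in every library were Clu, Krt8, Pcbp1, Atp5h and Bsg. Their r was 0.906, 0.893, 0.879, 0.871 and 0.836 over the 6 libraries, given as a description. All points share library depth and background, the median r over the 346 genes was 0.291, and with counts outside ribosomal RNA as the total the nearest 5 shared 0 genes with these.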

How the data were processed

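RNA was measured in 6 libraries of 1 group. Per the submitters' processing notes, the tools were Trim Galore 0.6.4, FastQC, STAR 2.7.9a, SAMtools and featureCounts with build mm10. The authors deposited 1 table of raw read counts by symbol for each library. The deposited Length equals the span for all 55253 symbols with 1 interval, so introns are counted. Annotation release, strand setting and treatment of reads with several alignments are not given in the sources used here.

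Exon lengths came from GENCODE M21 by symbol or coordinates for 55144 of 55367 symbols. Levels were compared as log2(TPM + 1) with exact sign-flip tests over 64 sign patterns, and sets with edgeR 4.0.16 (TMM, filterByExpr, quasi-likelihood, Benjamini-Hochberg at 0.05; SE from the F statistic) and DESeq2 1.42.0 in R 4.3.3. Other steps used scipy 1.17.1, pandas 2.3.3, matplotlib 3.10.9 and numpy 2.4.6 under Python 3.11.15. Tests were tested on simulated data. Expected background is receptor counts per Mb times gene span. The chi-square per degree of freedom between library pairs was at least 8.15, more than counting variation gives, so no library was a resequencing of another. It cannot tell whether libraries are separate sorts or amplifications from the same animal. Members, gene lists and tests were chosen with earlier results of these data known. Named are all members, the paired genes of their steps, the 3 highest genes of each list around glycolysis, any called there, and the 5 nearest in pattern; a few of these genes are not reported here. Alternatives were another total, length, pseudocount, filter and tool, background subtraction and leaving out each library. Depth per library and its precision are given with the results.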

Additional observations from a re-analysis of the deposited data

Results flagged for a closer look

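Of 39 profiles over 6 libraries examined for a library far from the others by Dixon's gap criterion, 7 were marked, where chance marks about 1 in 20. In replicate 4 the highest values stood apart for Eno1, at 4.34 TPM, and Ldha, at 10.1 TPM. In replicate 5, the library with the highest receptor background, the highest values stood apart for Pfkp, at 1.01 TPM, Ldhb, at 2.37 TPM, and Ldhc, at 2.95 TPM. The within-library differences in log2(TPM + 1) were lowest there for Aldoa minus Aldoc, at 1.70, and Ldha minus Ldhc, at 0.81.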

How the results depend on the processing

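No paired analysis was possible because the labels give 1 group with replicates numbered 1 to 6 and no number shared between groups. Among the 12 pairs within steps, 10 or 11 passed under each setting with 6 libraries, and 9 of 11 by exon length outside other genes, where Gapdh minus Gapdhs has no value, while without each replicate in turn 0 passed, the range being 0 to 0, because 5 libraries allow no exact p under 0.063. By gene span length Pfkl minus Pfkm was 0.18 and without length scaling 0.21, the opposite of its main sign. Of the 9 neighbouring pairs 6 passed by gene span length, where Aldoa minus Gapdh was -1.20, Pgk1 minus Pkm -0.17 and Gpi1 minus Eno1 -0.47. Without length scaling, Tpi1 minus Ldha was -0.063, Pgk1 minus Pkm -0.66 and Pgam1 minus Pfkl -0.33.

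Genes called higher and lower in set B numbered 1 and 0 by edgeR, 519 and 206 by DESeq2, 790 and 203 without a filter on low counts, and 1791 and 43 with counts outside ribosomal RNA as the total (an option added after seeing the data). Leaving out 1 library gave 0 to 1656 higher and 0 to 561 lower, with 1656 and 561 without replicate 4, 366 and 369 without replicate 5, and 0 otherwise. With that total, Pfkl, Tpi1, Gapdh, Pgk1, Eno1, Pkm and Ldha were at 0.34, 0.36, 0.59, 0.48, 0.50, 0.23 and 0.61. Leaving out 1 library gave -0.76 to 0.14 for Gapdh, -0.84 to 0.029 for Eno1 and -0.57 to 0.15 for Ldha, each lowest without replicate 4 and highest without replicate 5; Gapdh was at 0.010 without replicate 6. The causes were not tested. Counts of 5 to 24 per library limit Pfkl and Pgam1.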
